A study of Mus musculus with 36 samples.

Results

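The integrated stress response mRNAs described here are 10 genes, Atf4, Atf5, Ddit3, Ppp1r15a, Ppp1r15b, Ifrd1, Slc35a4, Trib3, Asns and Ddit4, chosen by gene symbol out of the 55487 genes of the count table. They were followed through polysome fractionation and RNA sequencing of cortex from female mouse embryos at E14.5, a stage when dorsal progenitors are making neurons, in 36 libraries that form 12 groups of 3. In the LoF cross, conditional heterozygotes (cHet) carried Emx1-Cre/+ with Ddx3x lox/+, and their controls carried Ddx3x lox/+ without Cre. In the T532M cross, cHet carried Emx1-Cre/+ with Ddx3x-T532M lox/+, and their controls carried Emx1-Cre/+ alone. Each library came from the pooled cortices of 2 embryos, as polysome, monosome or input RNA, the input having been set aside before the sucrose gradient.

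Translation of most mRNAs slows when one of several kinases phosphorylates eIF2, the factor that brings the initiator tRNA to the ribosome. A small set of mRNAs escapes or even gains under this condition, because short reading frames in the leader ahead of the coding region catch ribosomes in normal times and let more of them through when eIF2 is limiting. Atf4 is the best known of these mRNAs, and its protein switches on genes of amino acid supply and stress, among them Asns, Trib3 and Ddit4. Ddx3x, the gene altered here, is an X-linked RNA helicase that acts during scanning of the leader by the small ribosomal subunit.

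The starts of the upstream frames in Atf4, Atf5 and Ddit3 are shown because these mRNAs had the lowest polysome levels relative to monosomes among the 10 genes. Each line is read 5′ to 3′ from the main GENCODE M21 transcript on GRCm38, with the start codon in capitals. Atf4 (ENSMUSG00000042406.8) lies at chr15:80255184-80257541 on the plus strand, and its leader of 594 bases holds 3 upstream starts, whose frames run for 36, 3 and 59 codons. The frame of 59 codons crosses the main start, so ribosomes that translate it pass the coding region's own start.
Atf4 upstream start 1, chr15:80255303-80255305: ttttctctcATGgggc
Atf4 upstream start 2, chr15:80255582-80255584: gcggccaccATGgcgt
Atf4 upstream start 3, chr15:80255681-80255683: gcctaagccATGgcgc
Atf4 main start, chr15:80256299-80256301: ccccacaacATGaccg
Atf5 (ENSMUSG00000038539.15) lies at chr7:44812256-44816658 on the minus strand and has the same layout in its leader of 373 bases, with a frame of 3 codons and then one of 58 codons that crosses the main start.
Atf5 upstream start 1, chr7:44816535-44816537: gcccgcgcaATGgctc
Atf5 upstream start 2, chr7:44816404-44816406: ttcgccgccATGgagt
Atf5 main start, chr7:44815164-44815166: gtcacagccATGtcac
Ddit3 (ENSMUSG00000025408.15), at chr10:127290774-127296288 on the plus strand, has a frame of 34 codons and a nested one of 31 codons, both of which end before the main start.
Ddit3 upstream start 1, chr10:127290829-127290831: gattatatcATGttga
Ddit3 main start, chr10:127295341-127295343: cgtgcagtcATGgcag

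The other genes differed in what their leaders hold. Ppp1r15a (ENSMUSG00000040435.12, chr7:45522916-45526268, minus strand) had 3 upstream starts with frames of 45, 34 and 26 codons. Ppp1r15b (ENSMUSG00000046062.5, chr1:133131143-133139783, plus strand) had 3 with frames of 2, 8 and 51 codons. Ifrd1 (ENSMUSG00000001627.12, chr12:40201567-40248504, minus strand) had 1 upstream frame of 52 codons. Slc35a4 had 12 upstream starts, and the first opens a frame of 103 codons, which the annotation also lists as a coding transcript of its own. Trib3 (ENSMUSG00000032715.9, chr2:152337422-152344032, minus strand) and Ddit4 (ENSMUSG00000020108.4, chr10:59949669-59951834, minus strand) had none. Asns (ENSMUSG00000029752.12, chr6:7675169-7693254, minus strand) had 2 upstream starts in the GENCODE transcript, but its RefSeq start site lies 45 bases further downstream, and 0 upstream starts follow it. An upstream start was present in 8 of the 10 genes, against 50.9% of 14413 tested genes with a coding transcript. The 10 were chosen as mRNAs with regulatory upstream frames and stress response genes, so this share follows from the choice. A frame across the main start was present in 2 of the 10, against 16.5% of those genes.

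Depth ranged from 44214830 to 57935512 read pairs in polysome, 36999365 to 49049947 in monosome and 38059093 to 46271375 in input libraries. Counts took in whole gene spans with introns, on 1 strand. The labels do not define the gradient range behind the terms monosome and polysome. Levels are given as CPM, counts of read pairs scaled to library size with TMM factors, so they are shares of a library. A fold between fractions is thus relative to the other RNAs there and does not give the share of an mRNA's molecules that carry many ribosomes. Emx1, whose promoter drives the Cre in dorsal telencephalic progenitors, was present in every input library (61.4 to 90.1 CPM). Cells outside that lineage keep both Ddx3x alleles. Where the lox sites lie in the gene is not stated in the labels, so the Ddx3x count is no check of the deletion. Ddx3x itself passed the test in 0 of the 6 comparisons of cHet with control, with log2 fold changes of -0.33 in input, -0.53 in monosome and -0.32 in polysome of the LoF cross. In the T532M cross they were 0.97 in input, -0.04 in monosome and 0.80 in polysome. Ttr, the main choroid plexus transcript, exceeded 10 CPM in the input of 1 LoF cHet pool, 2 LoF control pools, 1 T532M cHet pool and 0 T532M control pools, and the summed choroid plexus and cortical hem markers in input spanned 15.9 to 68.6 CPM in LoF cHet and 35.4 to 235 CPM in LoF controls. In T532M they spanned 14.4 to 257 CPM in cHet and 19.7 to 22 CPM in controls. Of the tested markers of choroid plexus and hem, blood, dorsal cortex, ventral forebrain, microglia, and vessels and meninges, 0 passed in any comparison of cHet with control. In bulk cortex, fewer cells of a type and less RNA per cell cannot be told apart. Nothing in the labels says that the pools came from separate litters or days, so p-values measure the spread between these pools.

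All 10 genes passed the filter on low counts in both crosses. Per kilobase of spliced transcript, the level in control input followed the order Atf4, Ddit4, Slc35a4, Atf5, Ppp1r15b, Ifrd1, Ddit3, Asns, Ppp1r15a and Trib3 in the LoF cross. The counts include introns while this length does not, so genes with long introns may stand too high. Ifrd1 spans 46938 bases with 3378 in the spliced transcript, and Atf4 spans 2358 with 1725. Atf4 was at 123 ± 7.41 CPM per kb, Ddit4 at 63.2 ± 0.683, Asns at 11.3 ± 0.636 and Trib3 at 0.139 ± 0.0162 CPM per kb (SD, n = 3 each). In that order the intervals of 1 SD overlapped between Ifrd1 (17.7 ± 1.48 CPM per kb) and Ddit3 (15.7 ± 2.15 CPM per kb). In T532M controls Ddit3 (17.5 ± 2.59), Ifrd1 (17.1 ± 1.65) and Ppp1r15b (20.3 ± 2.36 CPM per kb) overlapped, and Slc35a4 (36.3 ± 3.38) overlapped Atf5 (33 ± 1.68 CPM per kb).

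**Figure D1:**
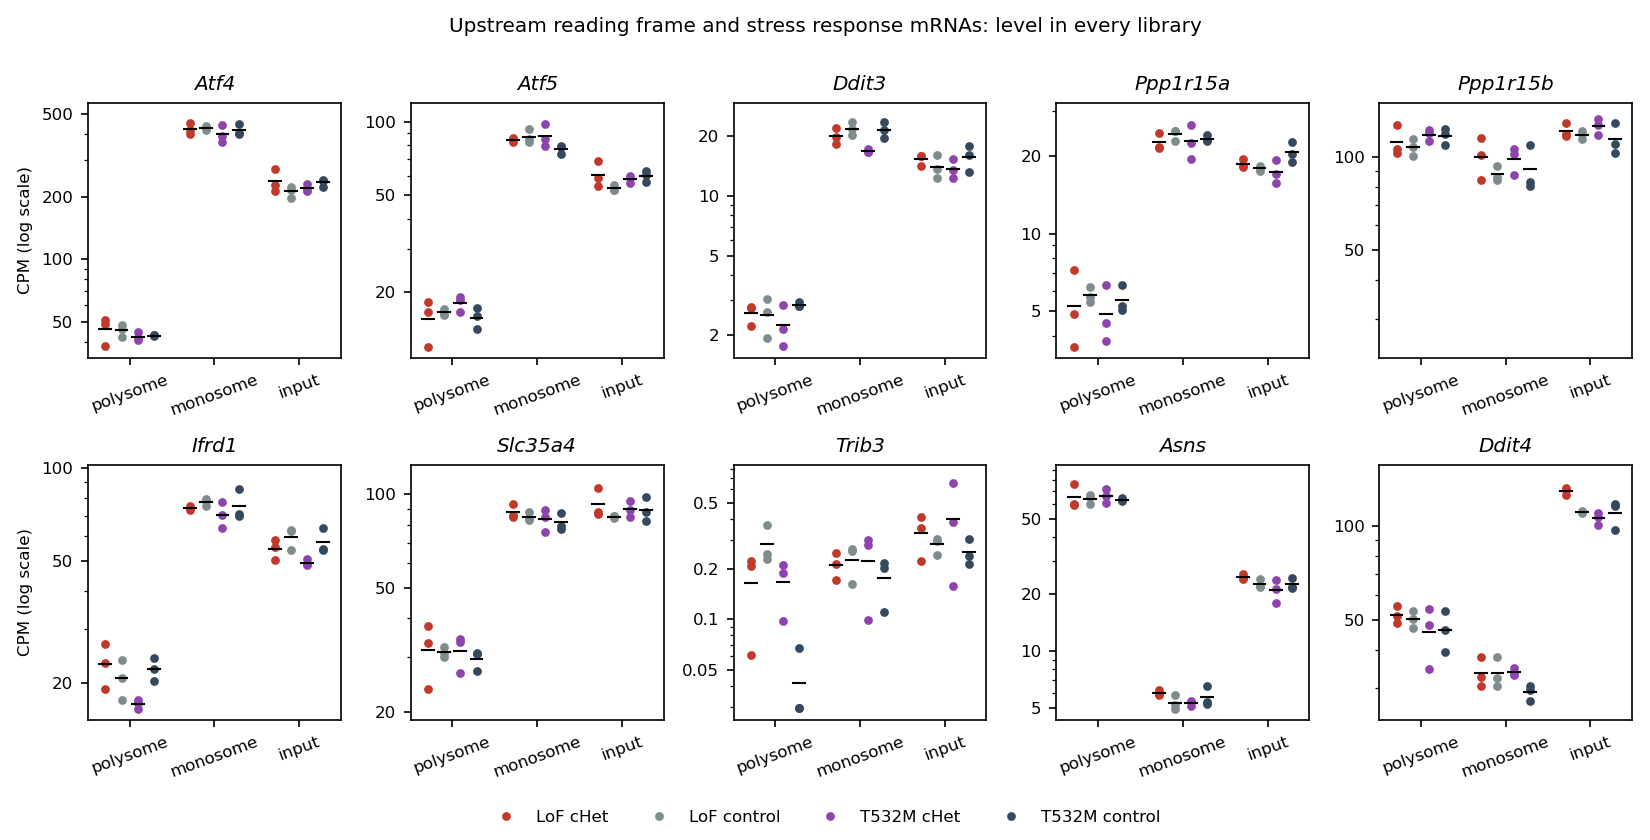
Level of each of the 10 mRNAs in every library, in CPM on a log axis, by fraction. Each point is 1 library, colours give the cross and genotype, and black bars are means of 3; Atf4 lies between 37.9 and 50.8 CPM in all 12 polysome libraries and between 368 and 455 CPM in all 12 monosome libraries, while Asns shows the opposite order.

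The first comparison asked where these mRNAs sediment in control cortex. The 3 transcription factors were low in polysomes and high in monosomes. Atf4 was at 48.1, 45.8 and 42.2 CPM in the polysome libraries of LoF controls, 434, 436 and 419 CPM in monosome and 223, 215 and 198 CPM in input. No library of one fraction reached the range of another. Its log2 fold change was -3.24 ± 0.13 (SE) for polysome against monosome in LoF controls and -3.29 ± 0.105 in T532M controls, with edgeR quasi-likelihood adjusted p of 3.55e-14 and 2.07e-14. Against input, Atf4 was higher in the monosome by 1.02 ± 0.12 in LoF and 0.84 ± 0.0965 in T532M controls.

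Ddit3, which encodes the stress-induced factor CHOP, was at 1.93, 2.61 and 3.04 CPM in LoF control polysomes, 20.3, 23.4 and 21.6 CPM in monosomes and 13.6, 16 and 12.3 CPM in input. Its polysome values lay below every monosome and input value. Polysome against monosome gave log2 -3.10 ± 0.157 in LoF and -2.91 ± 0.157 in T532M controls. The table holds 2 gene models named Ddit3, on the same strand. The smaller one, which matches the upstream frame of 34 codons, had 0 read pairs in all 36 libraries. Its span of 2925 bases lies inside the 5515 bases of the main model and holds 11.8% of the main spliced transcript's bases. Read pairs in that span may be missing from the Ddit3 count. Atf5, a relative of Atf4, fell by 2.39 in LoF and by 2.30 in T532M controls on the log2 scale for polysome against monosome, and rose by 0.70 and 0.37 for monosome against input.

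The 2 genes for the subunits that direct protein phosphatase 1 to eIF2 and reverse its phosphorylation parted. Ppp1r15a, the stress-inducible subunit known as GADD34, was at 5.41, 6.22 and 5.65 CPM in LoF control polysomes, 25.2, 22.9 and 25 CPM in monosomes and 18.4, 17.5 and 18 CPM in input, again with no overlap. Its log2 fold change for polysome against monosome was -2.08 in both crosses (SE 0.164 in LoF and 0.163 in T532M). Ppp1r15b, the constitutive subunit known as CReP, was nearly even over the gradient, at 100.2, 114 and 107 CPM in polysome, 85.8, 84.2 and 92.9 CPM in monosome and 118, 114 and 121 CPM in input of LoF controls. It was slightly higher in polysomes than monosomes (log2 0.29 ± 0.113, adjusted p = 0.0245 in LoF; 0.36 ± 0.123, adjusted p = 0.0131 in T532M, edgeR). That call was lost without any 1 of the 3 LoF control pools, without T532M control pool 3 (adjusted p = 0.112), and in LoF without the filter on low counts.

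Ifrd1, a transcriptional co-regulator whose mRNA carries a conserved upstream frame, was lower in polysomes than monosomes by log2 -1.90 ± 0.126 in LoF and -1.77 ± 0.111 in T532M controls. Slc35a4, a transporter gene whose first upstream frame is known to yield a mitochondrial microprotein, was lower by -1.45 ± 0.13 and -1.46 ± 0.114. Slc35a4 did not pass for monosome against input (log2 -0.00 in LoF, adjusted p = 0.998, and -0.14 in T532M, adjusted p = 0.29, edgeR).

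Among the genes that Atf4 is known to switch on, Asns and Ddit4 were higher in polysomes than in monosomes. Asns, which makes asparagine from aspartate, was at 65, 66.6 and 59.6 CPM in LoF control polysomes, 5.19, 5.84 and 4.97 CPM in monosomes and 22, 24 and 21.7 CPM in input. Polysome values lay above all input values, and those above all monosome values. The log2 fold change for polysome against monosome was 3.58 ± 0.118 in LoF and 3.46 ± 0.121 in T532M controls, which placed Asns above 97.9% of the 18556 genes tested in LoF. Ddit4, which encodes the mTORC1 inhibitor REDD1, was at 47.1, 53.4 and 50.1 CPM in polysome, 37.8, 32.4 and 30.6 CPM in monosome and 112, 111 and 109.7 CPM in input of LoF controls. Both gradient fractions lay well below input, with log2 -1.14 for polysome and -1.72 for monosome against input, and polysomes exceeded monosomes by 0.58 ± 0.102 in LoF and 0.67 ± 0.14 in T532M.

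Trib3, a pseudokinase that restrains Akt and ATF4, was barely detected. Over the 3 LoF control libraries it had 30 read pairs in polysome, 35 in monosome and 45 in input, and over the 3 T532M control libraries 4, 30 and 37. It did not pass in LoF (log2 0.32 ± 0.42 for polysome against monosome). In T532M it did (-2.06 ± 0.734, adjusted p = 0.016, edgeR), but not once any 1 of the 3 control pools was left out, where adjusted p was 0.0529 to 0.108.

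**Figure D2:**
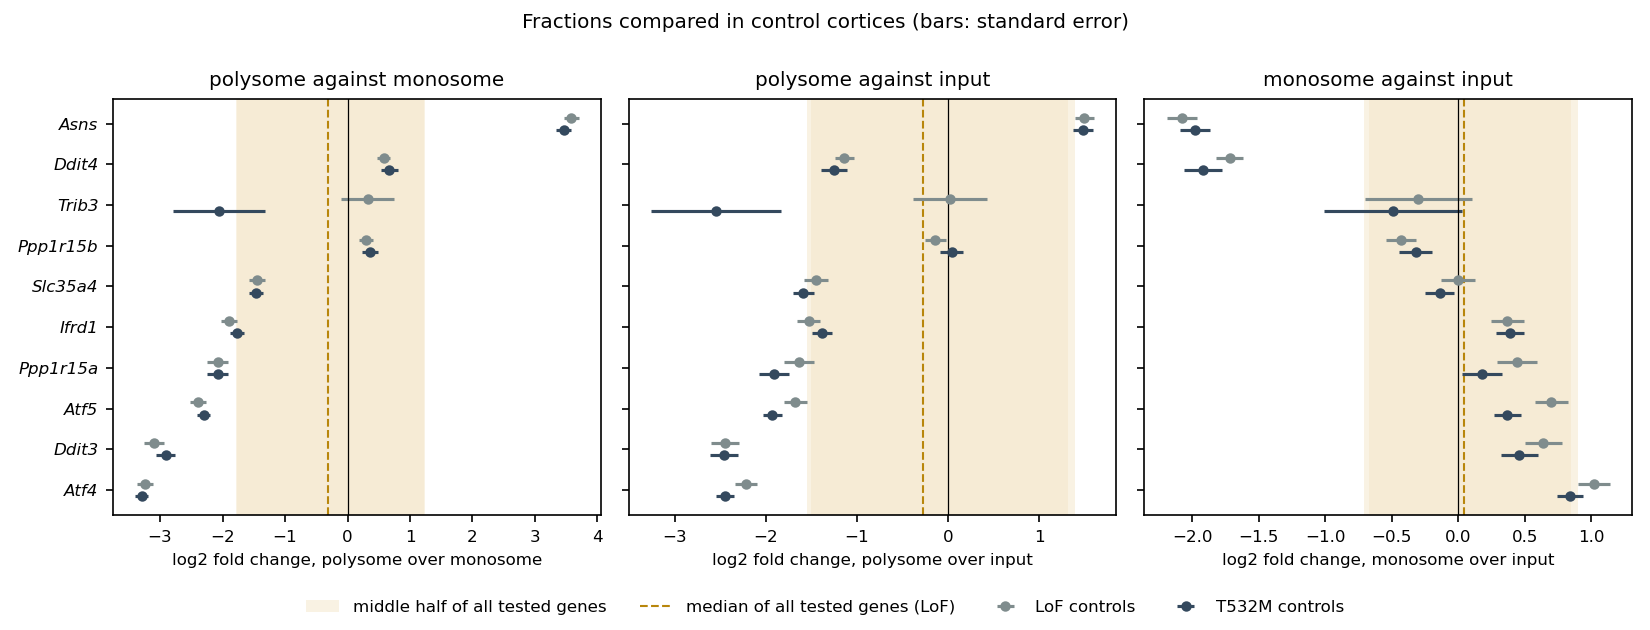
Log2 fold changes between fractions in controls of both crosses, with standard errors, for the 10 mRNAs. The shaded bands, 1 for each cross, are the interquartile range of all tested genes (-1.78 to 1.22 for polysome against monosome in LoF) and the dashed line their median (-0.31); Atf4, Ddit3, Atf5, Ppp1r15a and Ifrd1 sit left of the band in the first panel in LoF and Asns right of it.

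Counted together, 9 of the 10 mRNAs differed between polysome and monosome in LoF controls, 3 higher and 6 lower, where 81.2% of all tested genes did (36.4% higher and 44.9% lower). In T532M controls all 10 did, 3 higher and 7 lower, where 79.9% of all genes did (43.9% of all genes lower). These shares are near the background, so the count says little of the group and the sizes carry the description. The median log2 fold change of the 10 was -1.68 in LoF and -1.91 in T532M, against -0.31 over all tested genes in each cross. For polysome against input, 1 was higher and 7 lower in LoF (79.3% of all genes called, 36.5% higher and 42.8% lower) and 1 higher and 8 lower in T532M (79.0% called, 36.6% higher and 42.4% lower). For monosome against input, 5 were higher and 3 lower in LoF (62.7% of all genes called, 32.2% higher and 30.6% lower) and 4 higher and 3 lower in T532M (63.1% called, 32.1% higher). The 5 higher in LoF were Atf4, Atf5, Ddit3, Ppp1r15a and Ifrd1, and Ppp1r15a did not pass in T532M (log2 0.18 ± 0.151). The LoF calls of Ppp1r15a and Ifrd1 for monosome against input were both lost without LoF control pool 3 (adjusted p = 0.105 for each) and without the pools rich in Ttr (0.232 and 0.165), which left 3 higher. That of Ppp1r15a was also lost without pool 1 (0.084) or pool 2 (0.0623). In T532M the call of Ddit3 as higher was lost without control pool 1 (0.0731). That of Ppp1r15b as lower (log2 -0.32) was lost without control pool 1 (0.093), control pool 3 (0.153) or cHet pool 2 (0.0525). The Ppp1r15b call was also lost without the filter on low counts (edgeR adjusted p = 0.0913) and in the fit on the 6 libraries compared (0.0817).

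In cHet cortex Atf4 was again low and Asns again high in polysomes. For polysome against monosome, 2 were higher and 6 lower in LoF cHet, where 81.4% of all tested genes were called (36.1% higher and 45.3% lower), and 2 higher and 6 lower in T532M cHet, where 81.7% were. The log2 fold change of Atf4 was -3.22 ± 0.129 in LoF cHet and -3.24 ± 0.105 in T532M cHet, and that of Asns 3.44 ± 0.117 and 3.63 ± 0.123. For polysome against input, 1 was higher and 8 lower in LoF cHet (80.0% of all genes called, 37.7% higher and 42.3% lower). In T532M cHet 1 was higher and 8 lower (78.7% called, 35.2% higher and 43.5% lower). For monosome against input, 4 were higher and 3 lower in each, where 64.7% of all genes were called in LoF cHet and 58.2% in T532M cHet.

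Sedimentation depends on how many ribosomes a coding region can hold, so the values were read beside coding length. Over tested genes with a coding transcript, the median log2 fold change for polysome against monosome in LoF controls was -1.74 in the shortest of 5 equal length classes (up to 246 codons) and 1.71 in the longest. Atf4, with 349 codons, lay at -3.24 where the median of its class was -0.45, and 1.7% of that class lay lower. Ppp1r15a, with 657 codons, lay at -2.08 against a median of 0.92, with 2.7% of genes lower, and Ifrd1, with 449 codons, at -1.90 against 0.33, with 6.1% lower. Atf5 (283 codons) had 7.5% of its class below it. Ddit3, with 168 codons, was closer to genes of its length, with 15.5% lower, and Slc35a4, with 324 codons, had 22.5% lower. Ppp1r15b, with 697 codons, had 35.4% of its class below it. Ddit4, with 229 codons, lay above 96.6% of the shortest class, and Asns, with 561 codons, above 95.7% of its own. In T532M controls the shares below were 1.5% for Atf4, 2.7% for Ppp1r15a, 8.0% for Ifrd1, 8.4% for Atf5, 18.6% for Ddit3, 24.4% for Slc35a4, 96.7% for Ddit4 and 94.3% for Asns.

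**Figure D3:**
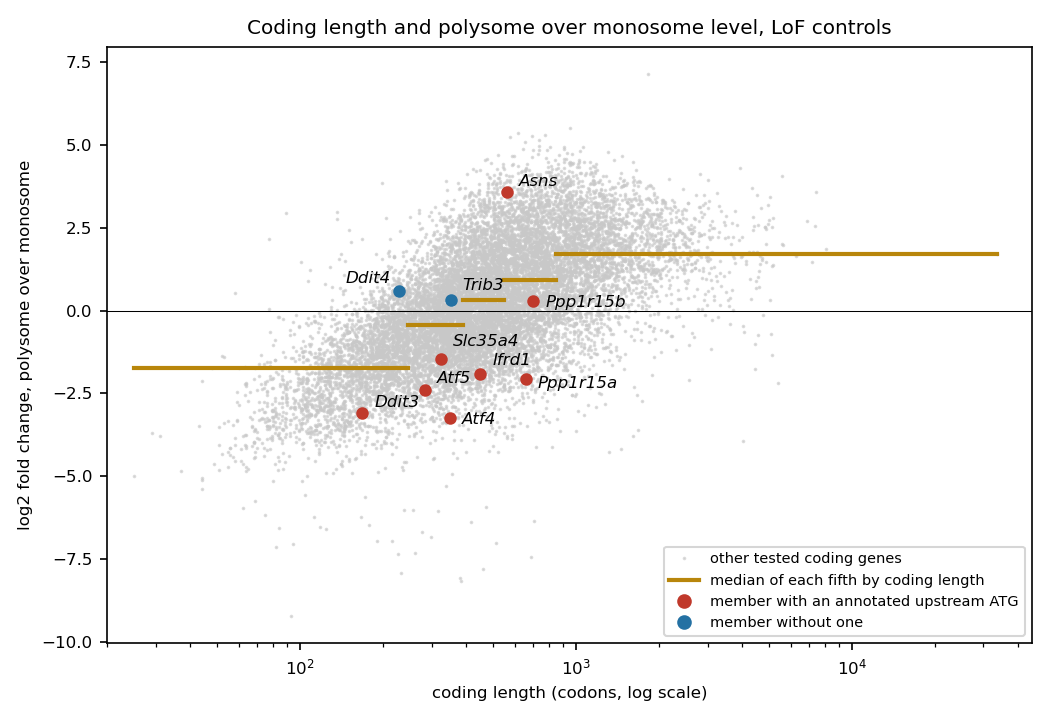
Coding length in codons (log axis) against the log2 fold change of polysome over monosome in LoF controls. Grey points are tested genes with a coding transcript, gold lines the median of each of 5 length classes, red points the mRNAs with an annotated upstream ATG and blue points those without; Atf4 and Ppp1r15a lie far below the line of their class and Ddit4 and Asns far above it.

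Across all tested coding genes the number of upstream starts moved the medians less than coding length did. In LoF controls the median log2 fold change for polysome against monosome was 0.29 for genes with 0 upstream starts, 0.09 with 1, 0.03 with 2 and -0.17 with 3 or more. For monosome against input the medians were -0.24, -0.05, 0.05 and 0.25. Genes with many upstream starts also differ in leader and coding length, and their part in these medians was not tested.

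The polysome over monosome ratio was also taken between libraries of the same cross, genotype and number, although the labels do not state that such libraries share a pool of embryos. Over the 12 pairs it was 0.0833 to 0.127 for Atf4, 0.0951 to 0.17 for Ddit3, 0.146 to 0.234 for Atf5 and 0.168 to 0.334 for Ppp1r15a. For Ppp1r15b it was 1.06 to 1.42, and for Asns 9.51 to 13.1. No pair of either genotype placed Atf4, Atf5, Ddit3, Ppp1r15a, Ifrd1 or Slc35a4 above a ratio of 0.441.

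**Figure D4:**
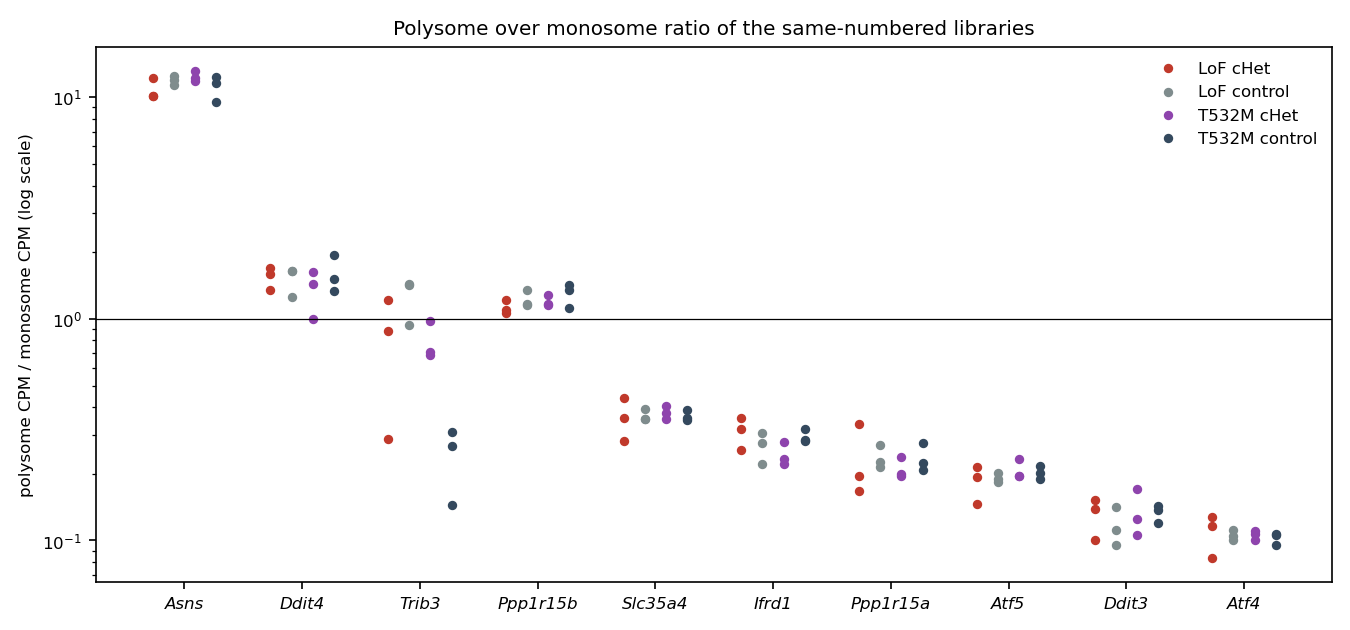
Ratio of polysome to monosome CPM (log axis) between same-numbered libraries, 3 points per group. The cHet and control points of both crosses run from 9.51 to 13.1 for Asns down to 0.0833 to 0.127 for Atf4. Those of Ddit4 spread from 0.996 to 1.95 and those of Ppp1r15a from 0.168 to 0.334. Trib3, which rests on few read pairs, spreads most, from 0.145 to 1.44.

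The next comparison asked whether a heterozygous change of Ddx3x altered these mRNAs. In the LoF cross cHet carried Cre and controls did not, so Cre and the Ddx3x change cannot be told apart there, while in the T532M cross both groups carried Cre. None of the 10 passed the test in any of the 6 comparisons of cHet with control (edgeR, adjusted p of 0.313 or above). In the LoF cross 0% of all tested genes passed in input, 0.0108% in monosome and 0% in polysome. In the T532M cross 0.00548% passed in input, 1.03% in monosome (0.976% higher and 0.0548% lower) and 0% in polysome. These shares come from the main fit, and in both crosses they changed with the analysis. Without adjustment, 1 of the 30 LoF values and 4 of the 30 T532M values had p under 0.05 (edgeR). Such counts, here and for the shifts between fractions, were not set beside the share of all tested genes. Whether they set these mRNAs apart was not tested.

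Atf4 was at 37.9, 48.6 and 50.8 CPM in LoF cHet polysomes and 48.1, 45.8 and 42.2 CPM in control polysomes, which overlap. The log2 fold change was 0.01, with a 95% interval of -0.24 to 0.26. In T532M polysomes it was at 40.6, 41.8 and 44.5 CPM in cHet and 43, 42.9 and 42.4 CPM in controls, also overlapping, with -0.02 (-0.22 to 0.19). In monosomes the log2 fold changes of Atf4 were -0.02 in LoF and -0.06 in T532M, and in input 0.17 and -0.09. Leaving out Trib3, all 95% intervals over the other 9 genes and the 3 fractions lay within 0.713 to 1.36-fold in LoF and 0.62 to 1.42-fold in T532M.

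The values nearest to a change were these. Ddit4 in LoF input was at 132, 130.2 and 126 CPM in cHet and 112, 111 and 109.7 CPM in controls, so the groups did not overlap. Its log2 fold change was 0.22 ± 0.101 (unadjusted p = 0.0406, adjusted p = 0.43, edgeR), and adjusted p ran from 0.17 to 1 over 12 alternative analyses. In T532M input it was -0.06 ± 0.138.

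Ifrd1 in T532M polysomes was at 17.6, 16.5 and 17.2 CPM in cHet and 20.3, 24.1 and 22.2 CPM in controls, with no overlap. The log2 fold change was -0.37 ± 0.111 (unadjusted p = 0.00342, adjusted p = 0.501, edgeR; 0.161 to 0.995 over 12 alternatives). Its value was 0.16 ± 0.125 in LoF polysomes. The difference, LoF minus T532M, was 0.54 (unadjusted p = 0.0033, adjusted p = 0.597 in the edgeR fit of all 36 libraries), so it did not pass. In T532M input Ifrd1 was also lower and apart, at 48.5 to 50.6 CPM in cHet and 54.2 to 64.1 CPM in controls. In T532M monosomes the groups overlapped, at 63.7 to 77.7 CPM in cHet and 69.8 to 85.8 CPM in controls. None of these differences of Ifrd1 passed after adjustment.

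Ddit3 in T532M monosomes was at 16.5, 16.5 and 17.2 CPM in cHet and 23.4, 19.5 and 21.4 CPM in controls, again apart. The log2 fold change was -0.35 ± 0.139 (unadjusted p = 0.0202, adjusted p = 0.313, edgeR; 0.0716 to 0.853 over 12 alternatives). Trib3 in T532M polysomes had 3, 5 and 7 read pairs in cHet and 1, 2 and 1 in controls, and did not pass (adjusted p = 0.58, edgeR).

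Counts of non-overlapping groups stood near the share of all genes. In LoF, 2 of the 10 were apart in input (11.3% of all tested genes), 2 in monosome (10.5%) and 1 in polysome (6.71%). In T532M, 1 was apart in input (13.3%), 3 in monosome (21.6%) and 2 in polysome (9.63%).

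**Figure D5:**
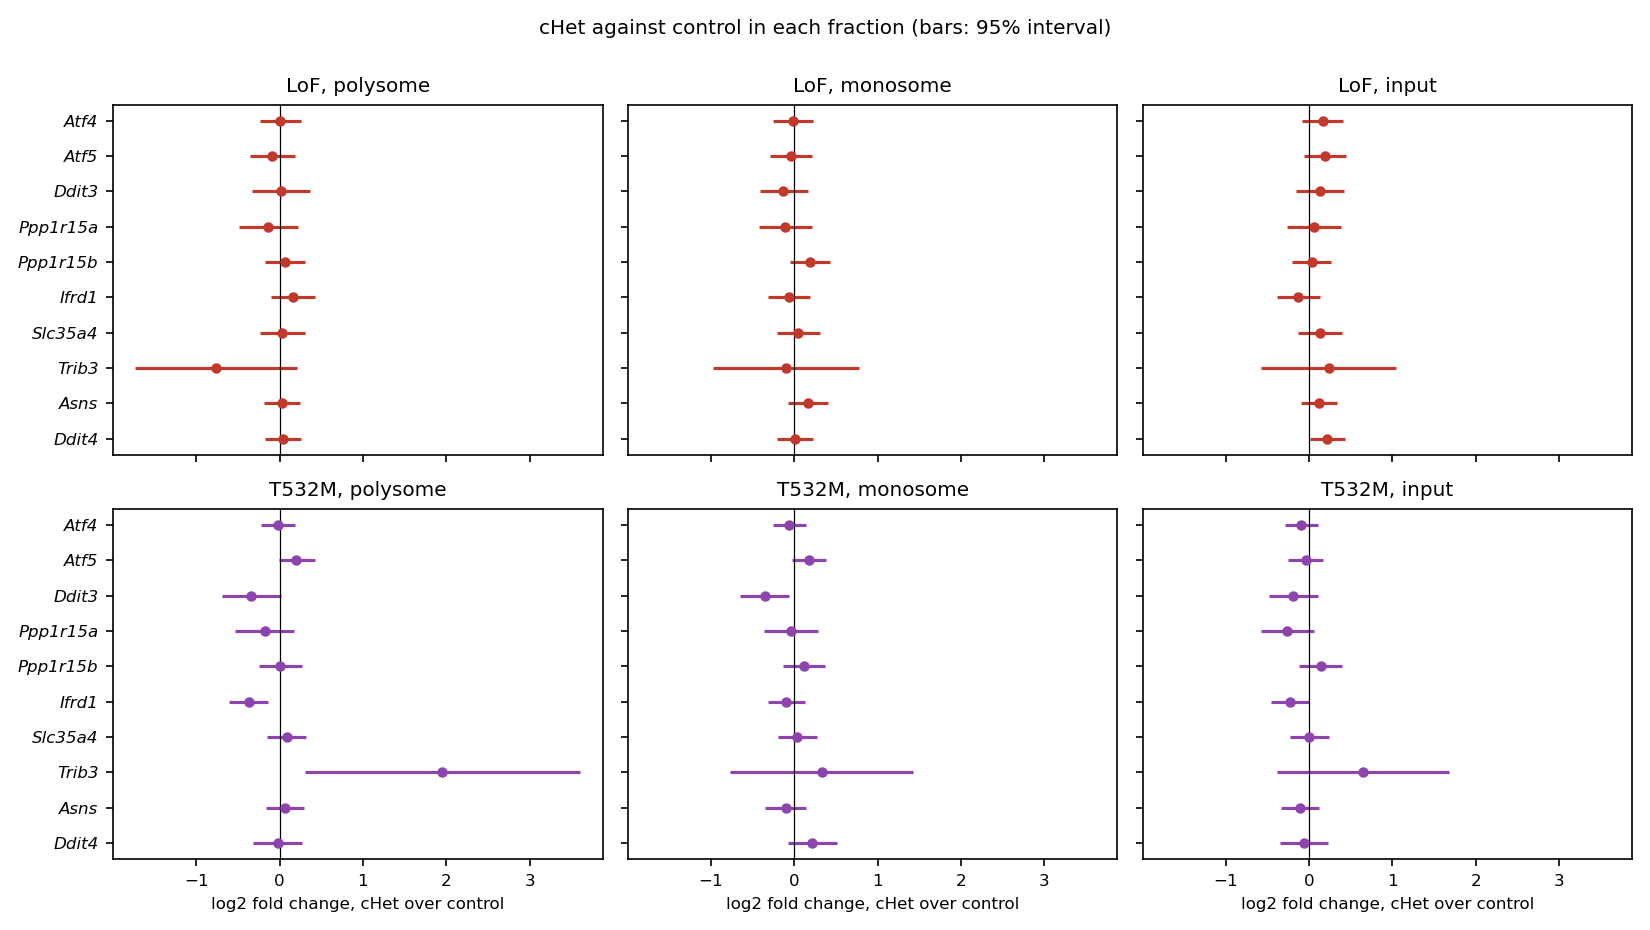
Log2 fold change of cHet over control for the 10 mRNAs in each fraction, LoF above and T532M below, with 95% intervals from the edgeR fit. Nearly every interval spans 0; those of Ddit4 in LoF input and of Ddit3 (monosome), Ifrd1 (input and polysome) and Trib3 (polysome) in T532M do not, and 0 of the 60 passed after adjustment.

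Shifts between fractions describe whether the genotype effect differed along the gradient, and in LoF this effect includes Cre. The genotype effect in polysome minus that in monosome was 0.03 ± 0.169 for Atf4 in LoF and 0.04 ± 0.137 in T532M. For Asns it was -0.14 ± 0.154 and 0.17 ± 0.159, and for Ppp1r15a -0.03 ± 0.226 and -0.14 ± 0.226. The largest for genes other than Trib3 was -0.28 ± 0.154 for Ifrd1 in T532M (adjusted p = 0.779, edgeR). Over the 6 contrasts of this kind, 0 of the 60 values had an unadjusted p under 0.05, and without Trib3 the 95% intervals stayed within 0.628 to 1.61-fold. Among all tested genes, 11 (0.0603%) passed for polysome minus monosome in T532M and 0 in LoF. For polysome minus input 0% passed in T532M and 0.0108% in LoF, and for monosome minus input 0.00548% and 0%. The genotype effects of the 2 crosses were also compared directly, LoF minus T532M, in each fraction and in polysome minus monosome. This difference holds the presence of Cre as well as the allele, which cannot be told apart. None of the 10 passed (adjusted p of 0.463 or above, edgeR). Of all tested genes, 0.0105% passed in input and 0% in monosome, in polysome and in polysome minus monosome.

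The authors' deposited tables give their own fold changes. Their monosome and polysome columns lay closer to the genotype effect relative to input than to the effect within a fraction, with median absolute log2 differences from the values here of 0.01 to 0.05 and 0.12 to 0.15. In the authors' deposited tables the lowest adjusted p of the 10 mRNAs was 0.176, for Ddit4 in LoF input (log2 fold change 0.25, p = 0.008), and 0 of 56 adjusted values were under 0.05. Trib3 was read from the LoF table only.

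Other genes of the response were taken from lists. Of 35 ATF4 target and amino acid response genes 33 were tested, and 23 were higher and 7 lower in polysome than monosome of LoF controls (T532M 23 and 6), with a median log2 of 1.88 (T532M 2.06). Among all tested genes 36.4% were higher and 44.9% lower in LoF, 79.9% passed in either direction in T532M with 43.9% lower, and the median was -0.31 in each cross. The counts of the next lists have the same background. In LoF they include Phgdh at 4.16 and Shmt2 at 3.39, which make serine and glycine, and the aminoacyl-tRNA synthetases Aars at 4.73 and Gars at 3.24. In T532M the smallest p-values were those of Gars at 3.37, Wars at 3.67, Nars at 3.57 and the amino acid transporter subunit Slc3a2 at 2.51. Asns thus had the same direction as most of this list.

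Of 14 other mRNAs known for regulatory upstream frames, 4 were higher and 9 lower in polysomes in each cross (median -0.99 in LoF and -1.04 in T532M). The values of this list and of the other lists were not set beside coding length, and its part in them was not tested. In LoF, Sat1, the enzyme that acetylates polyamines, was at -3.38, Ucp2 at -2.84 and Pnrc2 at -2.55, while Eprs, a tRNA synthetase, was at 3.45. In T532M, Ucp2 was at -3.11, Sat1 at -3.09, Amd1 at -2.31 and Pnrc2 at -2.50.

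Among the 18 genes for eIF2 kinases, eIF2, eIF2B and their regulators, 12 were higher and 2 lower in LoF and 13 and 2 in T532M. Eif2b3 was at 2.41 and 2.48, Eif2b4 at 1.82 and 1.85, and the kinase gene Eif2ak3 (PERK) at 1.45 and 1.55, LoF value first. Gcn1, a co-activator of the kinase GCN2, was at 2.39 in LoF, and Eif2d at -1.27 in T532M. The immediate early genes split into 6 higher and 4 lower in LoF (6 and 5 in T532M), with Jun at 2.73 and Jund at -2.36 in LoF. The hypoxia genes split into 5 and 6 in each cross, with Ldha at 3.22 in LoF.

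For cHet against control, 0 genes of the ATF4 target list and 0 of the eIF2 list passed in any fraction of either cross. The median log2 fold change of the ATF4 target list was 0.06 in input, -0.01 in monosome and 0.03 in polysome in LoF, and 0.00, -0.01 and 0.14 in T532M. Of the other lists, 5 genes passed, all higher in T532M cHet monosomes. They were the upstream frame genes Odc1 (log2 0.54 ± 0.0983, adjusted p = 0.0112, edgeR) and Ucp2 (0.65 ± 0.126), the immediate early gene Jund (0.64 ± 0.12), and the hypoxia genes Pdk1 (0.97 ± 0.154) and Bnip3 (0.60 ± 0.136). Over 12 alternatives Pdk1 passed in 9, Ucp2 in 8, Jund and Bnip3 in 7 and Odc1 in 5. None of the 5 passed without T532M control pool 1 (adjusted p = 0.0615 to 0.236) or without T532M control pool 3 (0.0651 to 0.308), and without cHet pool 1, the T532M pool rich in Ttr, only Pdk1 did (0.00604).

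The promoters of 8 of the 10 genes were found in the RefSeq table (GRCm38.p6, 250 bases before to 50 after the start site) and searched on both strands for TGATGNAA, the core of the composite element through which ATF4 and C/EBP factors act. It occurred in Asns and Trib3 and in 4.0% of 32851 promoters. Both genes lie on the minus strand, and the motif is in capitals.
Asns, chr6:7693214-7693243: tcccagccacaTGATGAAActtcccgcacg
Trib3, chr2:152344028-152344057: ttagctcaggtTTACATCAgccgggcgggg
The Asns match starts 23 bases before the RefSeq start site, inside the stretch that GENCODE counts as leader, and the upstream starts of the GENCODE Asns transcript lie in the same stretch. The letters were not found in the windows of Atf4, Atf5, Ddit3, Ppp1r15a, Ifrd1 or Ddit4. In T532M control input, the level was 11.3 ± 0.72 CPM per kb for Asns and 0.124 ± 0.023 CPM per kb for Trib3 (SD, n = 3 each), so these 2 genes with the motif stood far apart in level.

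Over the 36 libraries the log2 CPM of Atf4, Atf5, Ddit3, Ppp1r15a, Ifrd1 and Slc35a4 moved together, with Pearson r of 0.94 to 0.99 between pairs, and against Asns with r of -0.79 to -0.94. Ddit4 had r = -0.06 with Atf4. These values come from 36 libraries that share 3 fractions, and describe the gradient. Among 9385 genes the most alike were Entr1, Cdk16 and Tmem183a for Atf4 (r = 0.997 each), E2f1 for Atf5 (0.995), Ift20 for Ddit3 (0.993) and Pantr1 for Ppp1r15a (0.993). For Asns they were Coro1c, Wars and Gars (0.998 each), the last of which are tRNA synthetase genes, for Ddit4 Dnajb1 (0.985), and for Ppp1r15b Uck2, at only 0.869.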

How the data were processed

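The authors deposited raw counts of read pairs per gene, which per the file headers were made with featureCounts 2.0.3 over whole gene spans in the reverse-stranded setting on GENCODE M25 and GRCm38. STAR 2.7.11a is named in the submitters' processing notes. The authors' deposited tables also give log2 fold changes with p-values, and 36 per-sample columns were not used. Counts were fitted in R 4.3.3 with edgeR 4.0.16 (TMM, filterByExpr, quasi-likelihood test, Benjamini-Hochberg adjustment over all tested genes, threshold 0.05), each cross on its 18 libraries with 6 group terms; the genotype effects of the crosses were compared in 1 fit of all 36 libraries. The code was tested on simulated data. Library totals give the depth. Transcript features came from GENCODE M21, whose spans for these genes equal those of the files.

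All 10 genes are named, with Ddx3x, up to 4 called genes of each list by smallest p, and for genes with a mean of at least 10 CPM those most alike by Pearson r of log2 CPM (prior count 3). The members and lists were chosen with earlier results of these data known. Alternatives were RLE scaling, no filter, DESeq2 1.42.0, a replicate block, fits on the 6 libraries compared, leaving out a pool (the libraries of 1 cross and genotype sharing a number), and subtraction of the median.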

Additional observations from a re-analysis of the deposited data

How the results depend on the processing

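No called fold change of the 10 mRNAs reversed. In the fraction comparisons of controls, counted over members and alternative tests, calls were kept in the same direction in 591 cases and lost in 20, which concern Ppp1r15b, Ppp1r15a, Ifrd1, Ddit3 and Trib3. Another 108 values passed in neither analysis, of which 5 changed sign. For LoF controls, monosome against input, 3 members rather than 5 were higher without the pools with more than 10 CPM of Ttr in input, which leaves 1 control pool whose spread is taken from the other groups, and without each LoF control pool in turn 3 to 4 were higher; the cause was not tested. In comparisons of genotypes and crosses 0 members passed under any alternative, and 172 of 1976 such values changed sign. The replicate block was fitted by pool number and by the number shared between cHet and control, and changed no member's call (Ddit4 in LoF input 0.23, adjusted p = 0.891). Same-numbered cHet and control libraries correlated at -0.72 to 0.43 in LoF and -0.46 to 0.53 in T532M. For 2 fractions of the same genotype and number these values were -0.25 to 0.39 in LoF (8 of 18 above 0.1) and -0.03 to 0.63 in T532M (17 of 18). The summed ventral forebrain markers kept the same order of numbers in all 3 fractions, in both genotypes of both crosses. In T532M cHet numbers 1 to 3 they were at 455, 246 and 201 CPM in input and 552, 339 and 252 CPM in polysome. Fractions of the same number may thus share a pool. The main fit did not take the numbers to pair libraries, so its tests leave such pairing out. Calls over all genes for T532M cHet against control in monosome ran from 7 to 876 around 188. They ran from 0 to 543 in T532M input and from 0 to 139 in T532M polysome. In LoF such calls also varied in each fraction. Their range is not given, because an alternative there leaves only 1 control pool. Depth limits Trib3 most, at 388 read pairs over 36 libraries.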
